A study of Mus musculus with 5 samples.

Results

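PU.1 sites called in PU.1 high over PU.1 low leukaemia cells were examined at 8 genes of non-chemokine chemoattractant and related receptors, namely Fpr1, Fpr2, C5ar1, C5ar2, C3ar1, Ptafr, Ltb4r1 and Hcar2, out of 21631 protein-coding genes (those of chromosomes 1 to 19 and of X). The genes were listed by name, and every site inside a gene or within 50 kb of either end was taken, with those within 10 kb counted separately. Distances are to the gene as RefSeq places it on GRCm38.p6, whose chromosomes are those of mm10. A gene's lower end is its end with the smaller coordinate, and its upper end the opposite one.

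PU.1, encoded by Spi1, was mapped by chromatin immunoprecipitation and sequencing (ChIP-seq, antibody T-21) in AML-246, a p53-/- mouse leukaemia on the C57BL/6 strain that carries a hairpin against PU.1. In the PU.1 high group, 3 libraries came from spleen cells of leukaemic recipient mice that had received doxycycline (Dox) for 2 days, which shuts the hairpin off and restores endogenous PU.1. In the PU.1 low group, 2 libraries came from untreated leukaemic mice, in which the hairpin is on. Per the labels these are technical replicates, which may share an animal, and the sources used here do not give the age or number of the mice. Both groups lack p53 and carry the hairpin, and the spleen of a leukaemic mouse can also hold host cells.

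The data are 1 list of 11111 summits called with PU.1 high set against PU.1 low. With the settings of that call unknown, some listed sites could be bound in both groups. A site bound alike in both groups could also be missing from the list. Where no site is reported below, no site was listed, which does not show that PU.1 was absent. Each summit carries the authors' score on a −log10 scale (a p-value or a q-value, which of them is not stated), with a median of 8.56 and quartiles of 5.78 and 11.9. A score tells how surely a site stood out and is not a fold change. The list holds no value per library, so depth and the spread between libraries are unknown, and PU.1 high and PU.1 low cannot be tested against each other at any site. Gene expression was not measured, so the myeloid identity of the cells could not be checked by markers. At Spi1 itself the nearest site scored 8.31 and lay 1.40 kb from the gene.

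The genes listed here encode receptors of the G protein-coupled family, most of which let neutrophils and macrophages sense where an infection or injury lies. Most couple to the Gi class of G proteins, whose beta-gamma subunits activate phosphoinositide 3-kinase gamma and phospholipase C beta and so drive directed migration, oxidase activation and degranulation. PU.1 is a transcription factor of the ETS family that binds DNA around a GGAA core and is needed for the development of these same myeloid cells.

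Of the 8 receptor genes, 6 had a site within 10 kb, against 27.8% of all protein-coding genes. Within 50 kb, 7 of the 8 had a site, against 50.3% of all protein-coding genes. The 8 genes are short, from 1.95 to 18.6 kb. Among the 11656 protein-coding genes of at most 20 kb, 19.2% had a site within 10 kb and 44.5% within 50 kb. The members were chosen with earlier results of these data known, so their count is given beside the background without a test. The 8 genes are also not 8 independent places. Fpr1 and Fpr2 are neighbours, as are C5ar1 and C5ar2, so the genes fall into 6 loci, of which 4 had a site within 10 kb and 5 within 50 kb.

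In all, 19 different sites lay within 50 kb of a member, 9 of them within 10 kb. Neighbouring members shared 7 of the 19. Only 1 of the 19 was inside a member, and for 9 of them a gene outside the 8 was the nearest protein-coding gene. Scores lay on both sides of the median of all sites. Of the 19 sites, 12 scored under the median of all sites and 7 above it, and their own median was 6.87, against 8.56 for all sites. A score of at least 10 was reached by 5 of the 19, and by 3 of the 9 within 10 kb, against 37.4% of all sites. The 3 belonged to Ptafr and Hcar2, so 2 of the 8 members had a site of that score within 10 kb, against 7.58% of the protein-coding genes of at most 20 kb. Within 50 kb this held for 4 members (C5ar1, Ptafr, Ltb4r1 and Hcar2), against 22.8% of those genes.

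**Figure D1:**
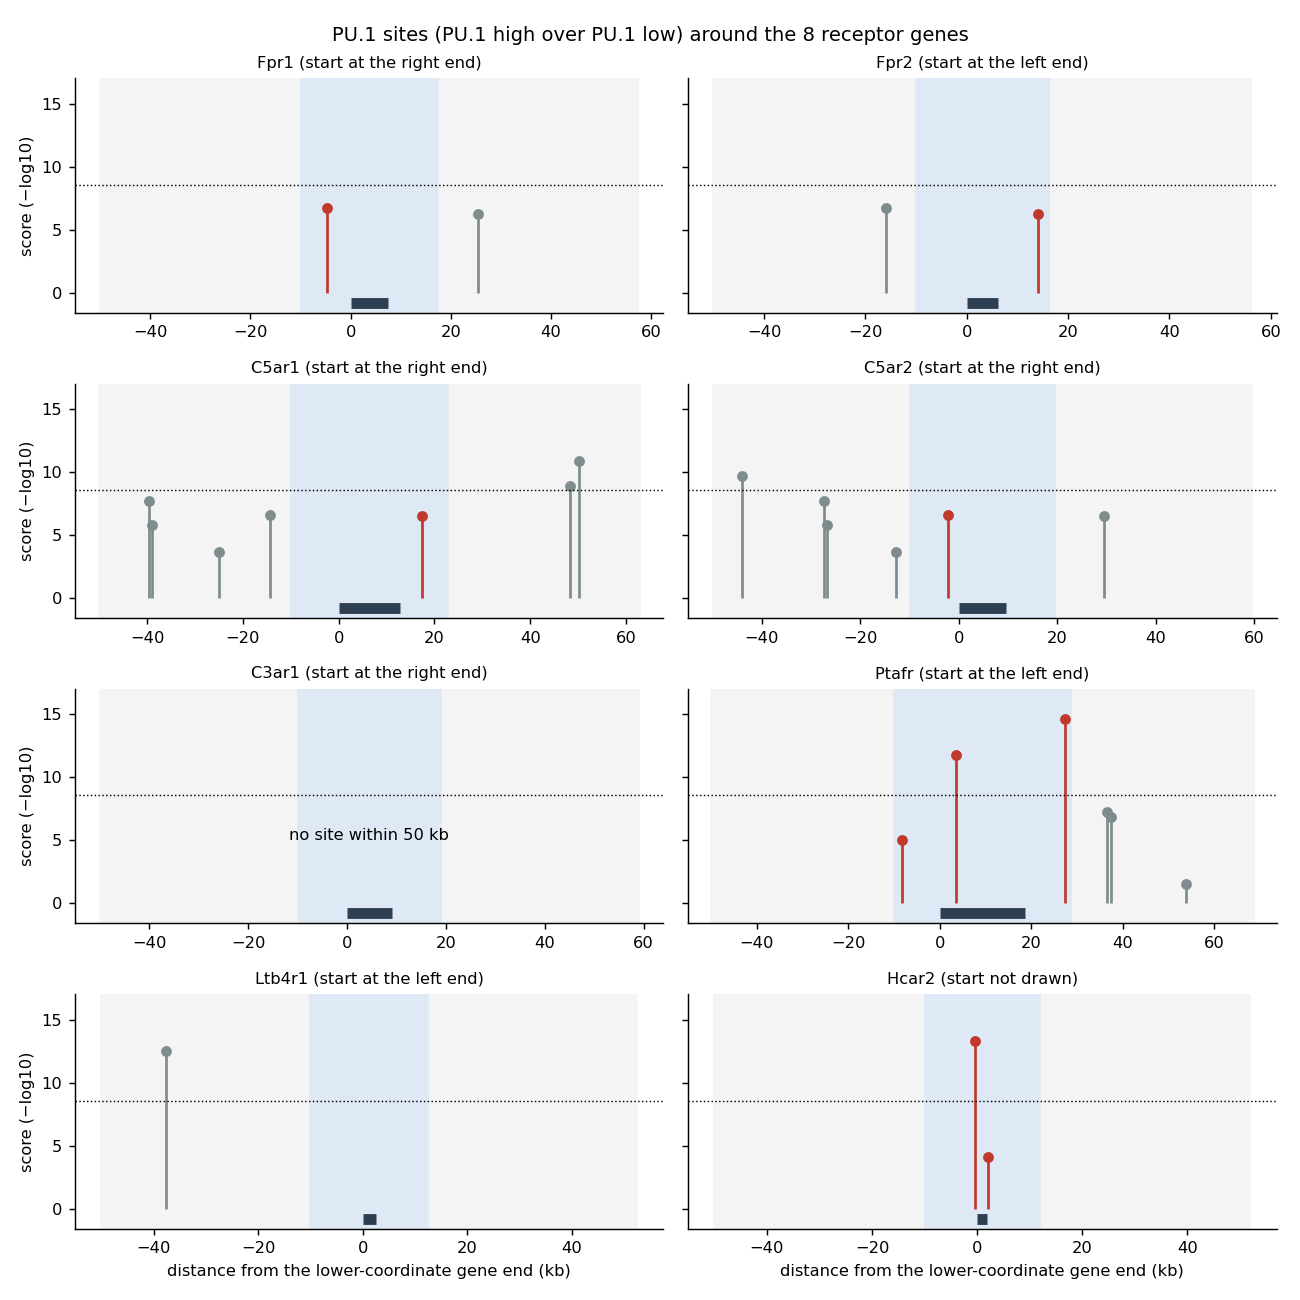
PU.1 sites around each receptor gene. The x axis is the distance in kb from the lower-coordinate end of the gene (dark bar), the y axis the deposited −log10 score, and each stem is 1 site. Red stems lie within 10 kb of the gene (blue band), grey stems between 10 and 50 kb (grey band), and the dotted line is the median of all sites, 8.56. Ptafr and Hcar2 have the tall red stems, C3ar1 has no stem, and sites of the Fpr and C5ar pairs appear in the panels of both neighbours.

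The formyl peptide receptor genes come first. Fpr1 encodes the main receptor for N-formylated peptides shed by bacteria and mitochondria, and Fpr2 a receptor that also recognises annexin A1, serum amyloid A and lipid mediators. Fpr1 (chr17:17876471-17883939, read from the minus strand) and Fpr2 (chr17:17887824-17893952, plus strand) stand head to head, with their starts facing each other across 3.88 kb. No site (0) was called between them.

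The pair of sites within 50 kb instead lay outside the gene pair, beyond the 3′ end of each gene. The site next to Fpr1, at 17871815, was 4.66 kb past its lower end with a score of 6.75. The site next to Fpr2, at 17901917, was 7.97 kb past its upper end with a score of 6.23. These are the same 2 sites for both genes, since the first lies 16.0 kb from Fpr2 and the second 18.0 kb from Fpr1. Both scores are below the median of all sites, at percentiles 34.3 and 29.0, where a percentile is the percent of all sites that score as high or lower. Counting genes of every biotype, the second summit was nearer to the pseudogene Gm7531 (4.48 kb) than to Fpr2. The 2 summits stood 30.1 kb apart, and the next site on the lower side was 289 kb from Fpr1.

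The promoters of Fpr1 and Fpr2 are shown because they face the interval without a site. Each is the RefSeq window on GRCm38.p6 from 250 bases before to 50 bases after the start, read 5′ to 3′ on the strand of the gene. Capitals mark every GGAA or its reverse complement TTCC, the ETS core.
Fpr1, chr17:17883890-17884189, minus strand: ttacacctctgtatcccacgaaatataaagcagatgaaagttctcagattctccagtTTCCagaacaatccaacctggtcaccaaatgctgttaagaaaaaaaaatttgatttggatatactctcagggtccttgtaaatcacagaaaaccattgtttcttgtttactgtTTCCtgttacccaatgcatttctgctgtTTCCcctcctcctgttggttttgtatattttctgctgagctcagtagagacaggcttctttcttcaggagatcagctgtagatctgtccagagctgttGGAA
Fpr2, chr17:17887574-17887873, plus strand: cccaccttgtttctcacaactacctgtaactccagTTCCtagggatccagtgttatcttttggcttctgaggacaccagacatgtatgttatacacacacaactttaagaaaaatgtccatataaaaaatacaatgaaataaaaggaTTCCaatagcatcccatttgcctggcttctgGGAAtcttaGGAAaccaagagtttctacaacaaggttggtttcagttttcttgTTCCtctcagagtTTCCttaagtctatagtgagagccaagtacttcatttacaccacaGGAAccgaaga
The Fpr1 window holds 4 such cores and the Fpr2 window 7. A match of this short core is common, with a median of 3 per window and at least 1 in 96% of the 32851 RefSeq promoter windows. The longer PU.1 core GAGGAAGT, searched on both strands, was in neither.

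Within 50 kb, the complement receptor genes had both the highest number of sites among the 8, 7 at C5ar1, and the lowest, 0 at C3ar1. C5ar1 encodes the G protein-coupled receptor for the anaphylatoxin C5a, C5ar2 a second C5a receptor that works through arrestin and does not couple to G proteins, and C3ar1 the receptor for the anaphylatoxin C3a. C5ar2 (chr7:16234587-16244154) and C5ar1 (chr7:16246743-16259540) are both read from the minus strand, with C5ar1 upstream of C5ar2 and 2.59 kb between them.

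Around C5ar1 and C5ar2 lay 8 different sites, with scores from 3.68 to 10.9. Of these, 5 were within 50 kb of both genes. The interval between the genes and the genes themselves held no site (0). The site nearest to C5ar1, at 16264153, was 4.61 kb beyond the upper end, which is upstream of the start, with a score of 6.48. The site nearest to C5ar2, at 16232342, was 2.25 kb beyond the lower end, which is the 3′ side, with a score of 6.57. Each of them was the only site within 10 kb of its gene. Both scores lie below the median of all sites, at percentiles 30.4 and 32.3.

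The other 6 sites of this locus were nearer to other genes. Inside Dhx34, a helicase gene, were 3 summits with scores of 7.67, 5.78 and 3.68, of which the first 2 were 0.488 kb apart. The lowest of the 3, at 16221814, was 12.8 kb from C5ar2, the closest site just outside the 10 kb window of any member. The site at 16190471 scored 9.71 and was 3.96 kb from the homeobox gene Meis3 and 44.1 kb from C5ar2. Slc8a2 was also nearer to it than C5ar2. On the other side, the sites at 16294956 (score 8.85) and 16296955 (score 10.9) were 8.15 and 10.1 kb from Ccdc9 and 35.4 and 37.4 kb from C5ar1. Bbc3, which encodes the apoptosis protein PUMA, Inafm1 and Sae1 were also nearer to these 2 sites than C5ar1. For C5ar2 the same sites fell just outside the window, at 50.8 and 52.8 kb.

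The C5ar2 promoter is shown for its run of closely spaced ETS cores. RefSeq gives 2 windows for C5ar2, and the one at the upper end of the gene is printed, with capitals as above.
C5ar2, chr7:16244105-16244404, minus strand: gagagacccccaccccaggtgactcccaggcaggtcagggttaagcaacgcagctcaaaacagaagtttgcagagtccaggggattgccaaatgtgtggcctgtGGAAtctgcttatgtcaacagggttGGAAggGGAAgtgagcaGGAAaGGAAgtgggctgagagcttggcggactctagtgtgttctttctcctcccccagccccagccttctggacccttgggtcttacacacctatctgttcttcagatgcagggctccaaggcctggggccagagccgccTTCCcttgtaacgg
It holds 6 cores. It also holds 2 matches of the C/EBP motif TTGCNNAA on either strand, which is in 10.8% of all windows, and it was the only member window with that motif. The C5ar1 window held 8 cores. Neither C5ar2 window nor the C5ar1 window had GAGGAAGT.

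C3ar1 (chr6:122847140-122856157, minus strand) was the member with no site (0) within 50 kb. Of all protein-coding genes, 49.7% share this. The nearest site was 65.5 kb beyond the upper end, at 122921654, with a score of 13.2. That summit stood 0.194 kb from Clec4a1, a C-type lectin receptor gene, and a second one at 122928859, inside Clec4a1, scored 15.7. On the lower side the nearest site was 77.1 kb away, inside the glucose transporter gene Slc2a3, with a score of 5.64. The C3ar1 promoter window was the only one among the members with the AP-1 motif TGANTCA, found in 7.81% of all windows, as TGACTCA beginning 22 bases before the start.

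The receptors for lipid mediators differed from each other. Ptafr encodes the receptor for platelet-activating factor, a phospholipid made by activated leukocytes, and Ltb4r1 the high-affinity receptor for leukotriene B4, a neutrophil attractant.

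Ptafr (chr4:132564067-132582683, plus strand) had 3 sites within 10 kb and 6 within 50 kb. The site inside the gene, at 132567678, scored 11.7 and lay 3.61 kb past the start. The highest-scoring site of all those near the 8 genes, at 132591363, scored 14.6 and was 8.68 kb beyond the upper end, the 3′ side. These scores are at percentiles 73.3 and 86.5 of all sites. The site upstream, at 132555764, scored 4.99 and was 8.30 kb from Ptafr, but 2.02 kb from Dnajc8, a co-chaperone gene.

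Further downstream of Ptafr, 2 sites 0.921 kb apart scored 7.27 and 6.87 at 18.0 and 18.9 kb from the upper end, and both had Ptafr as the nearest protein-coding gene. The last one, at 35.3 kb, scored 1.50, close to the lowest score in the list (1.32), and was nearer to Eya3. Ptafr was thus the nearest protein-coding gene for 4 of its 6 sites. At least 3 sites within 10 kb were found for 1.03% of the protein-coding genes of at most 20 kb, and at least 6 within 50 kb for 0.841% of them. These 2 limits are the counts of Ptafr itself and were set after they had been seen, so the shares are a description only. Beyond 50 kb, the next site was 69.3 kb away inside Sesn2, a stress response gene, with a score of 12.5.

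Ltb4r1 (chr14:55765962-55768492, plus strand) had no site (0) within 10 kb and 1 within 50 kb. That site, at 55728421, scored 12.5, at percentile 77.7, and lay 37.5 kb upstream of the gene. Its nearest protein-coding gene was Rabggta, a gene of Rab protein prenylation, 6.16 kb away, and Dhrs1, Tgm1, Nop9, Cideb and Ltb4r2 were also nearer to it than Ltb4r1. The next one on that side, at 68.5 kb, scored 13.6 and was 2.56 kb from Tgm1. On the other side the nearest site was 118 kb away.

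The Ltb4r1 promoter is shown because it is the only member window with the longer PU.1 core.
Ltb4r1, chr14:55765712-55766011, plus strand: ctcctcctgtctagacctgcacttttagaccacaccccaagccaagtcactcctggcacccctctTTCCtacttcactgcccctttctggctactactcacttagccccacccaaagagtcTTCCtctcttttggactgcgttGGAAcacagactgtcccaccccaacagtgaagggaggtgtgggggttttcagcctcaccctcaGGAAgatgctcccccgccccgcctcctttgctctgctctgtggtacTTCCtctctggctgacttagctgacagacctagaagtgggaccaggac
The longer core, GAGGAAGT, occurs there as its reverse complement ACTTCCTC, which begins at the start base and overlaps 1 of the 5 GGAA cores of the window. The RUNX motif TGTGGT ends directly before it. GAGGAAGT was found in 3.20% of all windows, TGTGGT in 16.8%. TGTGGT was not particular to Ltb4r1, since the C5ar1 and Fpr2 windows also held it, making 3 of the 7 members searched. The motif of interferon regulatory factors was in 3.44% of all windows and in no member window (0). The sites near Ltb4r1 were 37.5 kb away or more, so this match has no listed summit. Of the 8 windows searched for 7 of the members, 0 held a summit, as against 2.02% of all windows. At a share this low, 8 windows are too few for that 0 to set the members apart. Hcar2, the member with summits nearest outside its ends, was not among those searched.

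Hcar2 encodes a receptor for niacin and the ketone body beta-hydroxybutyrate that is found on fat cells and on neutrophils and macrophages. Hcar2 (chr5:123863570-123865516) had a site next to each of its ends. The summit at 123863215 scored 13.3 and was 0.355 kb beyond the lower end. The summit at 123865682 scored 4.09 and was 0.166 kb beyond the upper end. The 2 summits flank this short gene, 2.47 kb apart, and the first is at percentile 82.2 and the second at percentile 9.91 of all scores. No other site was near, with the next ones 283 kb and 160 kb away on the lower and the upper side. A site outside the gene and within 0.5 kb of each of its ends was found for 3 protein-coding genes, 0.0139% of all, namely Hcar2, Cbr3 and Slc31a1. This last count was made after the Hcar2 sites had been seen.

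**Figure D2:**
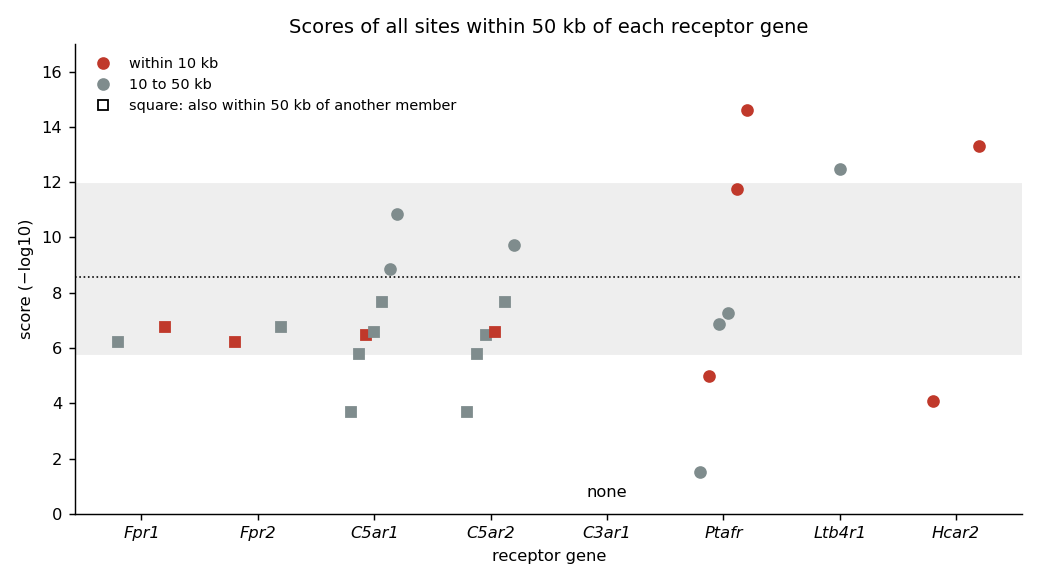
Deposited −log10 score (y axis) of every site within 50 kb of each receptor gene (x axis). Each point is 1 site, red within 10 kb and grey from 10 to 50 kb, squares are sites also within 50 kb of another member, the grey band spans the quartiles of all sites (5.78 to 11.9) and the dotted line is their median (8.56). Within 10 kb, Ptafr and Hcar2 have points above the median, and the Fpr and C5ar genes lie between 6.23 and 6.75.

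Ordered by the highest score within 10 kb, the members were Ptafr (14.6), Hcar2 (13.3), Fpr1 (6.75), C5ar2 (6.57), C5ar1 (6.48) and Fpr2 (6.23). The last 4 differ by little, and with no value per library no error can be put on any step of this order. The median of the 6 members, 6.66, is below that of all 6019 protein-coding genes with a site within 10 kb, 9.57. Those 6019 are of every length, and a longer gene can hold more sites from which the highest is taken.

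The other genes of the pathway were counted in 3 lists. Other chemoattractant receptor genes had a site within 10 kb in 6 of 16 cases (37.5%) and within 50 kb in 9 (56.3%), with the symbol Cmklr2 not matched. All protein-coding genes stood at 27.8% and 50.3%. Of the 13 genes of this list that span at most 20 kb, 4 had a site within 10 kb and 6 within 50 kb, against 19.2% and 44.5% of all protein-coding genes of that length. The genes of this list are not all independent places either. The 5 other formyl peptide receptor genes, Fpr3, Fpr-rs3, Fpr-rs4, Fpr-rs6 and Fpr-rs7, which in mice include receptors of vomeronasal sensory neurons, had 0 sites within 50 kb. All 5 lie in the same stretch of 3.62 Mb without a site. Ltb4r2, next to Ltb4r1, and Hcar1, next to Hcar2, had 0 sites within 10 kb. Within 50 kb Ltb4r2 had 1 site and Hcar1 had 2, which are the same sites as those of Ltb4r1 and Hcar2.

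Among the receptors with a site, Cmklr1, the chemerin receptor gene, led with a score of 21.2 inside the gene. It was followed by Ptgdr2, a prostaglandin D2 receptor gene, with 20.6 inside the gene, and Cysltr2, a cysteinyl leukotriene receptor gene, with 20.4 inside the gene. All 3 exceed the highest score near any of the 8 members, 14.6. Gpr84, a receptor gene for medium-chain fatty acids, reached 14.8 at a summit 5.88 kb past its upper end that was nearer to Zfp385a. The other 2 receptor genes with a site had highest scores of 13.1 and 6.57.

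Gpr84 had a summit inside its RefSeq promoter window, which is shown for that reason with the same marking. Gna15 and Gnai3, of the signalling list, also had a summit inside a promoter window, which is not shown.
Gpr84, chr15:103310389-103310688, minus strand: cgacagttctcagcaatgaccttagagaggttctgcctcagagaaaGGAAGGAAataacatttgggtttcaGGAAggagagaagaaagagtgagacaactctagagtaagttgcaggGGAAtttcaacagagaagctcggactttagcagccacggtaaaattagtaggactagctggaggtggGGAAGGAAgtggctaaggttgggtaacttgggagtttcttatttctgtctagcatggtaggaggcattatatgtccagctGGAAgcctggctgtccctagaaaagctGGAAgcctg
The second site of Gpr84 within 10 kb had the summit at 103310509, 71 bases before the start used for this window, with a score of 5.71. That summit is inside the gene as RefSeq spans it (chr15:103308233-103310670). The summit base was 5 bases from the nearest of the 8 cores in the window. GAGGAAGT was not in it.

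Ligand genes and genes of the enzymes that make or degrade ligands had a site within 10 kb in 13 of 17 cases (76.5%) and within 50 kb in 15 (88.2%). All protein-coding genes stood at 27.8% and 50.3%. Only 6 of the 17 span at most 20 kb, of which 4 had a site within 10 kb and 5 within 50 kb. Among all protein-coding genes of that length, 19.2% and 44.5% had one. Pla2g7, which encodes a hydrolase that inactivates platelet-activating factor, the ligand of the Ptafr product, had 5 sites within 10 kb with scores from 8.64 to 28.0, the highest inside the gene. Lpcat2, an acetyltransferase gene of platelet-activating factor synthesis, also had 5, of which the top one scored 16.4 at a summit 1.99 kb past its lower end that was nearer to Mmp2. Saa3, a serum amyloid A gene, and Anxa1, the annexin A1 gene, had 1 site each, inside the gene, with scores of 15.7 and 13.0. The other 9 genes had highest scores from 2.16 to 12.5. C3, the source of the ligand of C3ar1, and Cfp had 0 sites within 50 kb.

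Genes of the signalling machinery had a site within 10 kb in 21 of 27 cases (77.8%) and within 50 kb in 23 (85.2%). All protein-coding genes stood at 27.8% and 50.3%. Only 7 of the 27 span at most 20 kb, of which 4 had a site within 10 kb and 5 within 50 kb. Among all protein-coding genes of that length, 19.2% and 44.5% had one. Vav1, a signalling gene of blood cells, had 1 site within 10 kb, inside the gene, with a score of 22.6. Elmo1, a partner of Dock proteins in Rac activation, had 6 with a highest score of 20.4, Lyn, a Src family kinase gene, 9 with a highest score of 20.3, and Arrb1, the beta-arrestin 1 gene, 2 with a highest score of 19.4. Some of these genes are long, with spans of 518 kb for Elmo1 and 114 kb for Lyn. The other 17 had highest scores from 8.18 to 18.0. Gnb2, Plcb2, Plcb3 and Rgs19 had 0 sites within 50 kb.

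**Figure D3:**
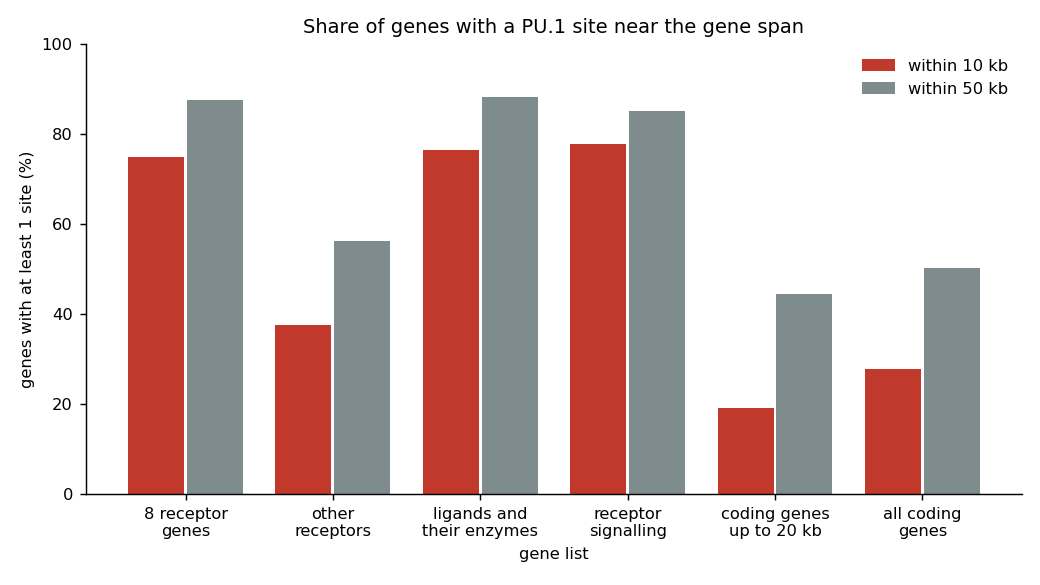
Percent of genes (y axis) with at least 1 site within 10 kb (red) or 50 kb (grey) of the gene span, for the 8 receptor genes, the 3 other lists, protein-coding genes of at most 20 kb and all protein-coding genes (x axis). The 8 receptor genes stand at 75% and 87.5%, the other receptors at 37.5% and 56.3%, and all protein-coding genes at 27.8% and 50.3%.

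**Figure D4:**
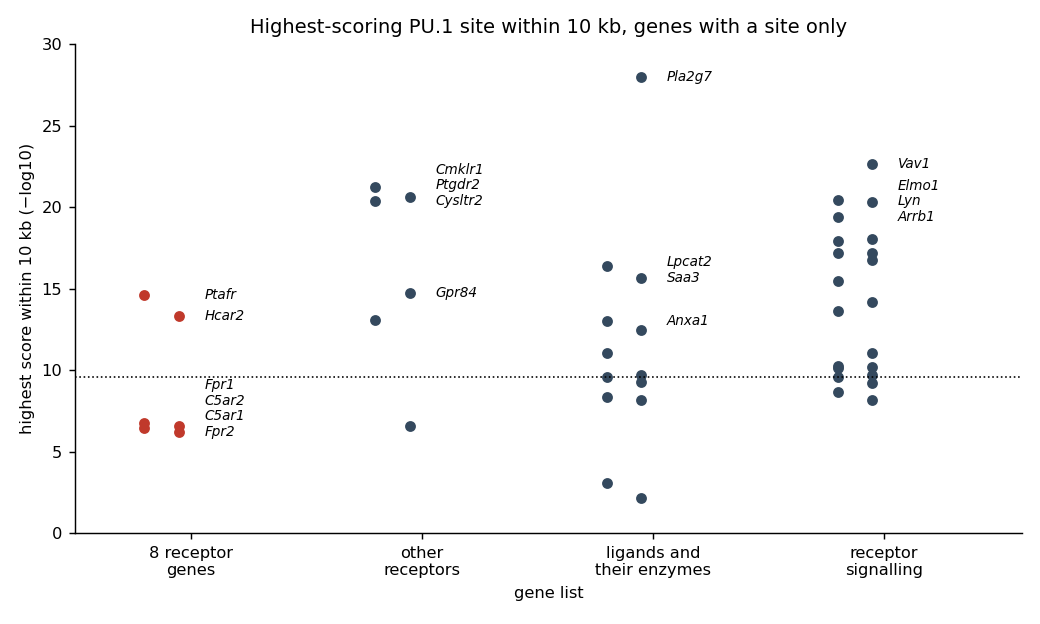
Highest −log10 score within 10 kb (y axis) of each gene that has a site there, for the 8 receptor genes (red) and the 3 other lists (dark), with the dotted line at 9.57, the median over all protein-coding genes with a site. Each point is 1 gene, and labels stand in the order of the scores. Points of the 8 receptor genes reach 14.6, those of the other lists 21.2, 28.0 and 22.6.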

How the data were processed

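The deposited file is 1 list of summits for the series, with a −log10 score per summit that the authors' peak caller gave. The submitters' processing notes name CASAVA 1.8.2, MACS2 and the build mm10. The sources used here do not give the MACS2 settings, the aligner or how technical replicates were combined. High set against low is read from the peak names. Since scores depend on depth, which is unknown, they rank sites within this list only, and no interval is given.

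The 11106 summits on chromosomes 1 to 19 and X were assigned by distance to gene spans from a RefSeq table of GRCm38.p6 (python 3.11.15, pandas 2.3.3), so 1 site can belong to several genes. Strand and start came from the RefSeq promoter table. Window counting was tested on simulated sites. Members, lists, windows and motifs were chosen with earlier results of these data known. Named are all members, each protein-coding gene nearer than the member to a member's site, the 4 list genes with the highest score within 10 kb, and Spi1. Genes named beyond this rule, among them those with 0 sites, Cbr3 and Slc31a1, were chosen after their values were seen.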

Additional observations from a re-analysis of the deposited data

How the results depend on the processing

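Of 124 alternative values, 101 stayed within 1.5 times the reported count or at the same highest score, and 23 moved. Another 6 could give no highest score. Fpr1, Fpr2 and C5ar2 lost all their sites within 50 kb at scores of at least 10. Ltb4r1 lost its site with a 25 kb window and with sites given to the nearest gene, each of which left 6 members with a site. Hcar2 lost no site, but the promoter table gave it no start from which to measure. With scores of at least 10 only, 2 members (Ptafr and Hcar2) had 3 sites within 10 kb (12.7% of all protein-coding genes had one), 4 members had 5 sites within 50 kb (26.9% of all), and 6 ligand genes had a site within 10 kb. A 25 kb window left 12 sites and a highest score of 6.57 for C5ar1 and for C5ar2, and a 100 kb window gave 10.9 for C5ar2 and 13.6 for Ltb4r1. With each site given to its nearest protein-coding gene only, 10 sites remained within 50 kb (25.6% of all protein-coding genes had one), with highest scores of 6.23 for Fpr2, 6.48 for C5ar1 and 6.57 for C5ar2. With distances to transcription starts, 3 members had 4 sites within 10 kb (17.6% of genes with a start), as had 8 ligand and 10 signalling genes, and the highest score of C5ar2 within 50 kb was 7.67. Hcar2, having no start in the promoter table, was not counted in that alternative. Its 2 sites lie within 10 kb of either end of the gene, so a start at either end would have kept them. Part of the fall in members and sites within 10 kb thus comes from leaving Hcar2 out. Windows of 5 and 20 kb in place of 10 kb, windows limited to gene ends, merging of summits within 500 bp and a score of at least 5 moved none of these values. The limit to gene ends and the count over genes of at most 20 kb were chosen after seeing the data, as were all alternatives for the 3 other lists. The planned motif search around summits was not run, since no genome sequence was used here. No paired analysis was possible because the deposited list is not split by library, which also means that leaving out a replicate could not be tried.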

Other observations

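Above Fpr2, the stretch to the next site was long. After the summit 7.97 kb beyond Fpr2 no site was called for 3.62 Mb, against a median of 54.9 kb between neighbouring sites. Of 11086 such intervals, 84 were at least this long, 3 of them on chromosome 17. The stretch holds 47 protein-coding genes, of which 5 are the other formyl peptide receptor genes, 35 are vomeronasal receptor genes and 4 are Zfp genes. How well reads could be placed among these related genes was not tested.

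Scores recur in the list. There were 1333 different scores among the 11111 sites, and 95.1% of sites shared theirs with another. Of the 19 sites near the members, 16 did so, for example the score of 6.57 nearest to C5ar2, which 198 sites have.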
